A study of Mus musculus with 104 samples.

Results

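Of the 39 Hox genes listed in the RNA tables of a study of mouse gastrulation, 38 were described across embryonic day (E) 6.5 epiblasts, E8.5 heads and E9.5 heads. The 39 were all rows with a gene name made of Hox, a cluster letter and a paralog number, among 22563 genes in the table with the Kmt2b samples and 22591 in the one with the Tet samples. Of the 38, the Hoxa cluster had 10, Hoxb 10, Hoxc 9 and Hoxd 9. Embryos were from crosses of DBA2 males with C57BL/6N females, and heads had been cut off near the neck. The groups were WT, Kmt2b-/- (KO), which lacks a histone H3 lysine 4 methyltransferase, and Tet1-/-;Tet2-/- (DKO), which lacks a pair of enzymes that oxidize 5-methylcytosine. In the Kmt2b set, RNA came from 3 WT and 3 KO epiblasts at E6.5, 3 WT and 2 KO heads at E8.5, and 3 WT heads and 1 KO head at E9.5, with 1 merged column for each group. In the Tet1/2 set, each library had a column of its own: 3 WT epiblasts, which are those of the Kmt2b set, 2 DKO epiblasts, 2 WT heads and 2 DKO heads at E8.5. The labels do not say whether replicates were separate animals, so a p-value here covers no more than the spread among the libraries at hand.

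Hox genes encode homeodomain transcription factors that give cells their position along the head-to-tail axis. In mammals they lie in 4 clusters, and genes with the same paralog number descend from a common ancestor. Genes with low numbers start earlier in development and reach further forward, into the hindbrain, while genes with high numbers act in the trunk and tail. The forebrain and midbrain normally express none of them. In embryonic tissue where they are silent, Hox clusters are held by Polycomb proteins, and trithorax-group methyltransferases, the family of Kmt2b, are known for keeping them active.

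The 4 promoter sequences below show the DNA that the methylation results concern. Hoxb1 and Hoxa2 are the genes of paralogs 1 and 2 that reached 1 FPKM and have an entry in the promoter table, Hoxd1 is the paralog 1 gene that stayed low, and Hoxa13 is a gene of the far end of a cluster. Each is the 250 bases before the RefSeq start of the gene, on the gene's own strand, and capitals mark CpGs.
Hoxb1, GRCm38.p6 chr11:96365508-96365757, plus strand: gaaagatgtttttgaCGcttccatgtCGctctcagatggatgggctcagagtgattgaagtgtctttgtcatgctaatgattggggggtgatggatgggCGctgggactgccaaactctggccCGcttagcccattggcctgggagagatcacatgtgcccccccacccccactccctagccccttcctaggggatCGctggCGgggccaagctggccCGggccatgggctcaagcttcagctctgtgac
Hoxa2, GRCm38.p6 chr6:52164832-52165081, minus strand: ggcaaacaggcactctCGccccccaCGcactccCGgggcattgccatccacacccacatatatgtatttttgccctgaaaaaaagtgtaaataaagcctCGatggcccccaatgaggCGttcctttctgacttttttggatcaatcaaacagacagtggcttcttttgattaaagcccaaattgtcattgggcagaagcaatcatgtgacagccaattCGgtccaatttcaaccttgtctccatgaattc
Hoxd1, GRCm38.p6 chr2:74762730-74762979, plus strand: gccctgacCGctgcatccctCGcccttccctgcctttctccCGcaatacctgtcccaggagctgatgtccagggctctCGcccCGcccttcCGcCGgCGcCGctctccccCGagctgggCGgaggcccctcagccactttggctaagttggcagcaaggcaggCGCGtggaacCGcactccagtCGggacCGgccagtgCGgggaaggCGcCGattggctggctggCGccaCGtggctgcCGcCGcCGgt
Hoxa13, GRCm38.p6 chr6:52260881-52261130, minus strand: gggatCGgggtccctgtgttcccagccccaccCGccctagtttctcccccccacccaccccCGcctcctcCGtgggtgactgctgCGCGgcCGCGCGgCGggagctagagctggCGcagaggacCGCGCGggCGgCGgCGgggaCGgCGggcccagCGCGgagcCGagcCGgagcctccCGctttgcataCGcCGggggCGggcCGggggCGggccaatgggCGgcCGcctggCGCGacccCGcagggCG
These windows hold 7 CpGs in Hoxb1, 6 in Hoxa2, 24 in Hoxd1 and 35 in Hoxa13. The table had 24 windows for 22 of the Hox genes, with a median of 12.5 CpGs, against 6 over all 32851 windows. The motif TGATNNAT, bound by Pbx and Hox proteins together, was searched on both strands. It was in 4 of the 24 Hox windows (Hoxd11, Hoxa2, Hoxb8 and Hoxb1) and in 7.68% of all windows. In the Hoxb1 run it starts at base 89 from the 5′ end, as tgatggat, and in the Hoxa2 run at base 140, as the reverse complement atcaatca. The TATA box core TATAAA, also searched on both strands, was in 4 Hox windows (Hoxd13, Hoxd4, Hoxa10 and Hoxb8) and in 12.4% of all. Only Hoxd13 had it on the gene's own strand, and the others matched as the reverse complement. The retinoic acid receptor direct repeat with a spacer of 5 bases was in 0 Hox windows and in 3 of all. The motifs can overlap one another, and a match is a description of the letters only.

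RNA levels were the authors' FPKM, a value scaled to transcript length and library size, which can be compared between genes per length but give no read counts, so their depth is unknown. The total per column was 451777 to 505668 FPKM in the Kmt2b set and 459552 to 459595 in the Tet1/2 set. The E9.5 columns had not been scaled with the other Kmt2b columns. Kmt2b, listed as Wbp7, had 0.600 to 1.20 FPKM in the merged WT columns and 0.0349 to 0.308 in the merged or single KO columns, lower in KO at each stage. Tet1 had 2.55 and 3.33 FPKM in WT heads and 1.28 and 1.29 in DKO heads. Tet2 was under 0.5 FPKM in all 9 columns of the Tet1/2 set. The labelled tissues were checked with marker genes. The 8 neural head markers summed to 203 FPKM in WT and 148 in KO heads at E8.5, and to 117 and 106 at E9.5. Of the 6 heart muscle markers, Myl7, which encodes an atrial myosin light chain, had 10.8 FPKM in WT heads at E9.5 and 1080 in the E9.5 KO library. The list as a whole summed to 21.0 and 2288 FPKM there, and 5 of its 6 genes had at least 3.90 FPKM in the KO library. The column of that library is named differently from its sample, with a code that can be read as embryo, so what tissue it holds is uncertain.

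Across all 15 columns, 11 of the 38 Hox genes reached 1 FPKM, and 27 did not. The highest value among the 27 was 0.944 FPKM, for Hoxb7. All 11 belonged to paralogs 1 to 7, which have 19 of the genes. The 19 genes of paralogs 8 to 13 stayed at 0.490 FPKM or less in every column. By cluster, 4 genes of Hoxa (Hoxa2 to Hoxa5), 5 of Hoxb (Hoxb1, Hoxb2, Hoxb3, Hoxb5 and Hoxb6), 1 of Hoxc (Hoxc5) and 1 of Hoxd (Hoxd3) reached 1 FPKM. Without the E9.5 KO library, only Hoxa2, Hoxb1 and Hoxb2 did. Hoxa6, Hoxa7, Hoxc9, Hoxc10 and Hoxd10 were listed at 0 in every column. The whole Hoxc cluster stayed under 0.303 FPKM outside the E9.5 KO library.

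**Figure D1:**
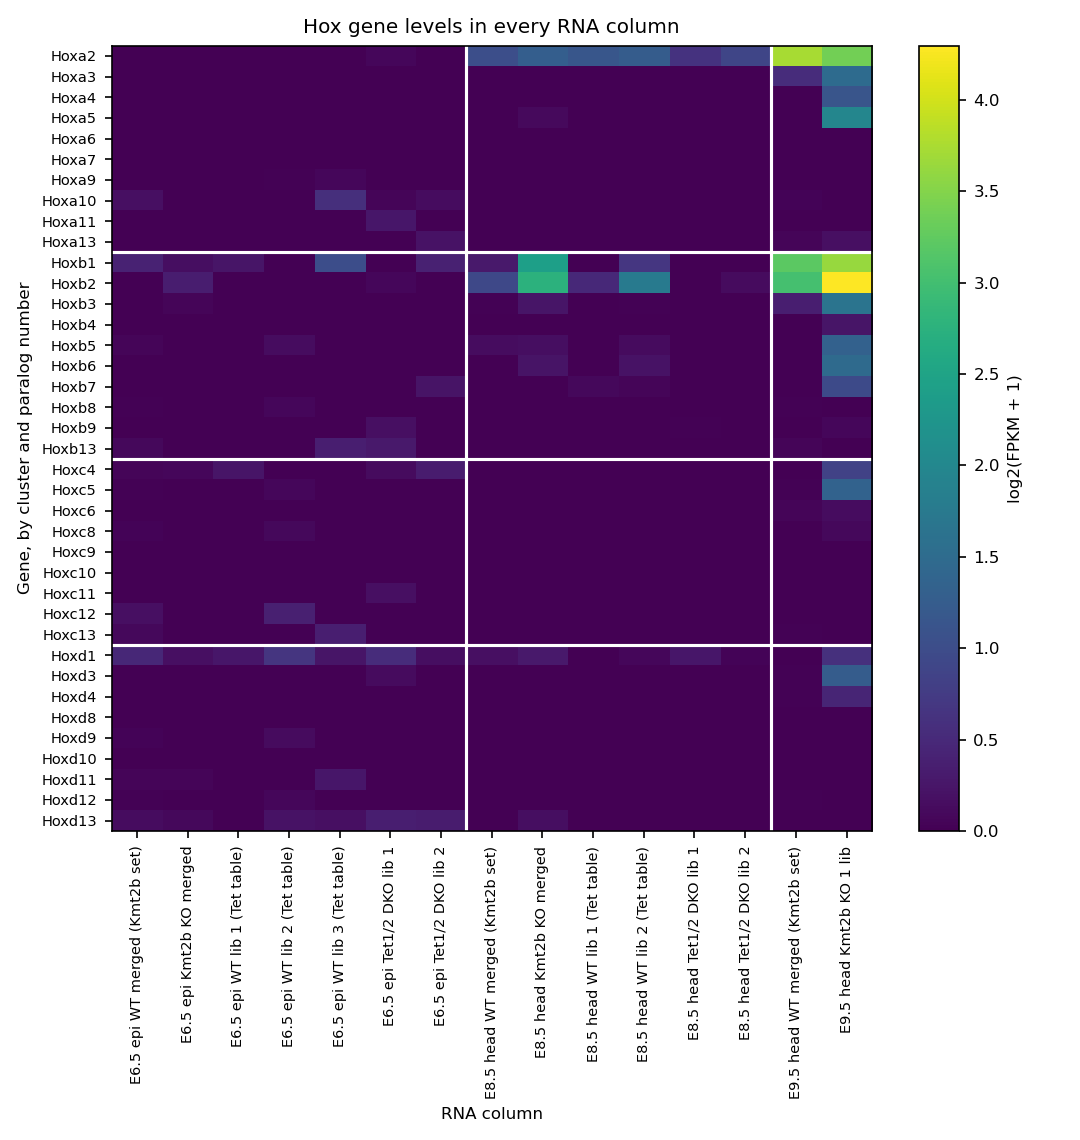
Levels of the 38 Hox genes (rows, by cluster and paralog number) in the 15 RNA columns (by stage), as log2(FPKM + 1). White lines separate clusters and stages. Outside the E9.5 KO library the genes that reach 1 FPKM are all of paralogs 1 and 2, and in that library 11 genes do.

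In the E6.5 epiblast, Hox RNA was sparse in every genotype. In the Kmt2b set, all 38 genes summed to 1.46 FPKM in WT and 0.711 in KO, with 16 genes above 0 in WT and 7 in KO. Over all 22563 genes, 6328 were at 0 in WT and 7324 in KO, so genes of any kind were more often at 0 in KO. In single libraries the Hox sums were 0.564, 1.48 and 2.64 FPKM in WT and 1.75 and 1.37 in DKO. The libraries differed in which genes they held. Only 3 Hox genes were above 0 in the first WT library, 10 in the second and 8 in the third. Over all 22591 genes, 8773, 7690 and 8580 were at 0 in these libraries. The library with the fewest Hox genes above 0 thus also had the most genes at 0. Hoxd1 was the only member above 0 in all 5 epiblast libraries, at 0.199, 0.590 and 0.187 FPKM in WT and 0.466 and 0.121 in DKO, so the groups overlapped. Hoxb1 had 0.178, 0 and 1.03 FPKM in WT and 0 and 0.311 in DKO, and its merged columns had 0.337 in WT and 0.114 in KO. The groups overlapped here too, and the third WT library alone held the highest value of any member in an epiblast. Genes of paralogs 8 to 13, which act in the trunk and tail, made up 1.43 of the 2.64 FPKM of that library. Hoxa10 had 0.490 FPKM in it and 0 in the other 2 WT libraries.

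Of the 3 Hox genes that passed the filter (at least 1 FPKM in at least 2 of the 6 columns), 0 differed by 2-fold between KO and WT epiblasts on the log2(FPKM + 1) scale, against 1.71% of all 11074 genes tested. These 3 genes passed through head columns and had at most 0.337 FPKM in either merged epiblast column. In the limma test of DKO against WT epiblasts, 35.2% of 11265 genes were called (Benjamini-Hochberg adjusted p under 0.05), and 0 Hox genes, with 0 at an unadjusted p under 0.05. The WT epiblasts are those of the Kmt2b set, so genotype and set of samples changed together here and cannot be told apart. Hoxa2 was the 1 member that passed that filter, at 0 in the 3 WT libraries and 0.0477 and 0 in DKO, with a log2 difference of 0.03 ± 0.15 (SE, limma adjusted p = 0.882). With no filter on low values, 26 members were tested, 0 called and 1 at an unadjusted p under 0.05, against 18.9% of all genes called. There the 2 DKO values of Hoxd13, a gene of the tail and digits, lay above all 3 WT values, at 0.281 and 0.255 FPKM against 0, 0.156 and 0.134. That was 1 of 26 members with values above 0, while 23% of all genes had higher, non-overlapping DKO values, and its limma test gave a log2 difference of 0.21 (adjusted p = 0.0572).

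From the WT epiblast to the WT head at E8.5, Hoxa2 was the 1 Hox gene past the threshold, of 3 tested in the Kmt2b set and 1 in the Tet1/2 set. The sets share their WT epiblasts, so they are not independent here. Hoxa2, the gene that patterns the second branchial arch and rhombomere 2, went from 0 to 1.05 FPKM in the merged columns. It was the 1 of 3 members tested that differed by 2-fold (log2 difference 1.04), against 14.2% of all genes. With no filter it was 1 of 31, against 8.6% of all genes. Hoxb2, a target of Egr2 in the hindbrain, went from 0 to 0.911 FPKM. Hoxb1, the gene of rhombomere 4, had 0.337 and 0.223. In single libraries, Hoxa2 had 0 in all 3 WT epiblasts and 1.22 and 1.39 FPKM in the 2 WT heads. The rise was 1.20 ± 0.15 on the log2 scale (SE, limma adjusted p = 0.000592), and 36.9% of all genes were called. Stage, tissue and set of samples changed together in this test, since the WT epiblasts are those of the Kmt2b set. Hoxa2 reached 1 FPKM in the WT heads only, so it passed the filter through the group in which it is high. From DKO epiblasts to DKO heads Hoxa2 rose too, from 0.0477 and 0 to 0.543 and 0.860 FPKM (log2 0.73 ± 0.16, limma adjusted p = 0.0132, 49.7% of genes called). That call was lost without the second DKO head (adjusted p = 0.0866), and the gene fell below the filter without either WT head.

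Among the cofactors that bind DNA with Hox proteins, more genes were called higher than lower over the same step. Of 9 Pbx, Meis and Pknox genes, limma called 5 higher and 1 lower in WT heads against WT epiblasts, with a median log2 difference of 0.91 over the list and 0.01 over all genes, of which 36.9% were called in either direction. Pknox2 rose from 0.389, 0.423 and 0.599 FPKM to 10.1 and 11.4, and Meis2 from 0.779, 0.364 and 1.20 to 8.84 and 8.60. Meis1 rose from 0.302, 0 and 0.0999 FPKM to 4.59 and 5.39. In these 3 genes every WT head was above every WT epiblast. Pknox1 fell, from 5.88, 8.01 and 6.85 FPKM to 2.82 and 3.08. In DKO, 4 of the 9 rose and 1 fell, where 49.7% of all genes were called.

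At E9.5 the WT heads held 3 Hox genes at high levels. Against E8.5, Hoxa2 went from 1.05 to 12.3 FPKM, Hoxb1 from 0.223 to 8.24 and Hoxb2 from 0.911 to 7.17. The log2 differences were 2.69, 2.92 and 2.10, and 3 of 3 members tested were at least 2-fold higher, against 8.77% of all genes. Hoxb1 and Hoxb2 were over 1 FPKM at E9.5 and not in the E8.5 WT column, and with no filter the count was 3 of 31, against 5.85% of all genes. Hoxa3 and Hoxb3, genes of the posterior hindbrain, appeared at 0.464 and 0.286 FPKM. The merged columns give no error for these differences, and the E9.5 columns were not scaled with those of E8.5. After quantile normalization of all columns together the 3 differences were 2.75, 2.94 and 2.09.

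**Figure D2:**
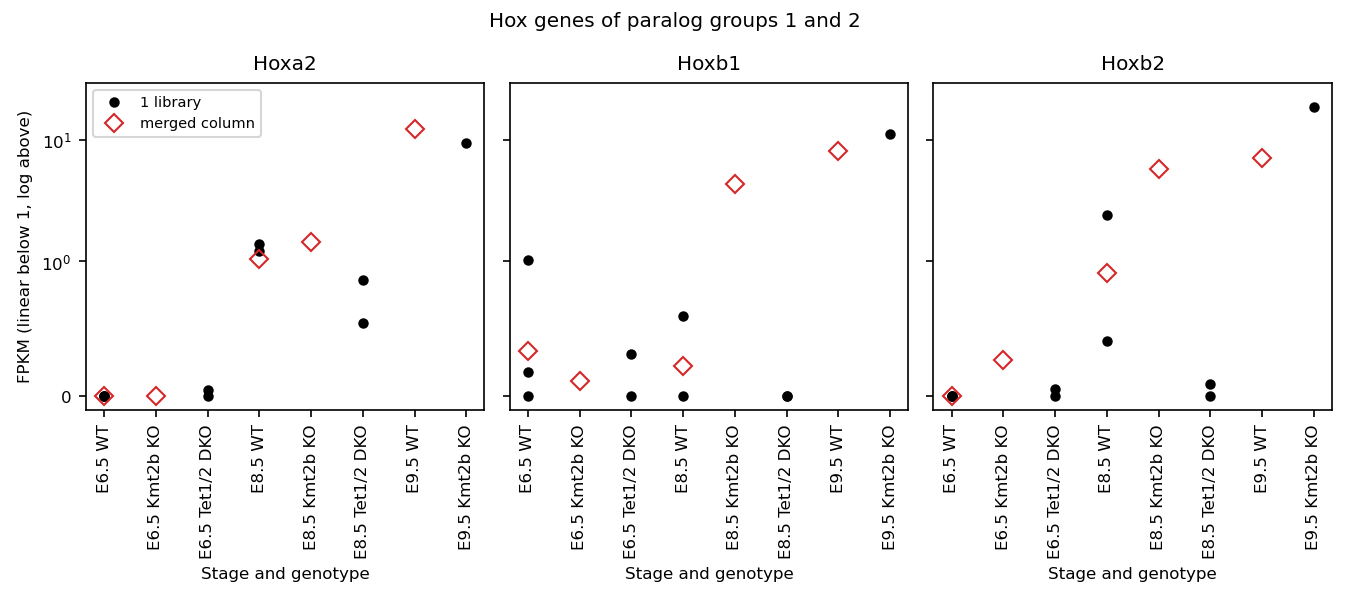
FPKM of Hoxa2, Hoxb1 and Hoxb2 by stage and genotype (axis linear below 1, logarithmic above). Black points are single libraries and red diamonds merged columns of the Kmt2b set (3 libraries each, 2 for E8.5 KO). The E8.5 WT position holds the merged column of the Kmt2b set and the 2 WT heads of the Tet1/2 set. In E8.5 Kmt2b KO heads Hoxb1 is at 4.39 FPKM, while its WT values at that stage are 0.595 or less.

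In the E8.5 heads, loss of Kmt2b went with higher levels of Hoxb1 and Hoxb2. Hoxb1 went from 0.223 FPKM in the WT column to 4.39 in the KO column, a log2 difference of 2.14, and Hoxb2 from 0.911 to 5.78 (1.83). Hoxa2 was close in both, at 1.05 and 1.44 FPKM (0.25). Together the 4 genes described of paralogs 1 and 2 summed to 2.31 FPKM in WT and 11.8 in KO, out of 2.47 and 12.5 for all 38. Hoxd1, also of paralog 1, had 0.125 and 0.232 FPKM.

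Of the 3 members tested, 2 were at least 2-fold higher, against 2.22% of all genes (4.73% in either direction). Over the 31 members with a value above 0 in any column, with no filter on low values, the same count was 2 of 31, against 1.35% of 18875 genes. A pseudocount of 5 left 0 of 3. With the 2 WT heads of the Tet1/2 table as the control, 2 of 3, Hoxb1 and Hoxb2, were past 2-fold. In those 2 WT libraries, Hoxb1 had 0 and 0.595 FPKM, and Hoxb2 0.413 and 2.41. The KO column was thus above each of 2 WT libraries and the merged WT column in both genes. Beyond paralog 2, Hoxb3 had 0.0233 FPKM in the WT column and 0.186 in KO, Hoxb6 0 and 0.172, Hoxb5 0.109 and 0.114, and Hoxa5 0 and 0.0775. In the 2 WT heads of the Tet1/2 table, Hoxb6 had 0 and 0.152 FPKM, and Hoxb5 0.0113 and 0.0918. The other genes of paralogs 3 to 7 were listed at 0 in KO.

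Of 13 regulators of the hindbrain and posterior embryo, 6 were tested and 2, Egr2 and Wnt8a, were at least 2-fold higher in KO, against 2.22% of all genes. The other 4 differed by 0.38 or less on the log2 scale, and the median of the 6 was 0.35, against -0.01 over all genes. Egr2, the zinc finger factor of rhombomeres 3 and 5, had 0.513 FPKM in WT and 5.38 in KO. Wnt8a, a Wnt ligand of the early posterior embryo, had 0.183 and 5.94. T, the mesoderm factor brachyury, had 1.14 and 1.78 FPKM. Cdx1, Cdx2 and Cdx4, caudal factors that activate trunk Hox genes, stayed at 0.152 FPKM or less in both. Of the 9 cofactors, 7 were higher and 0 reached 2-fold (median 0.34), with Meis2 at 8.92 and 16.1 FPKM and Meis1 at 5.53 and 9.19.

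Markers of other tissues also differed between these columns. The 8 neural head markers were all lower in KO, 2 of them at least 2-fold. Of 6 epiblast markers, 4 were at least 2-fold higher. Of the markers tested, 3 of 3 for blood and 3 of 5 for neural crest were at least 2-fold lower. Of all genes, 2.22% were at least 2-fold higher and 2.51% lower. The 6 heart markers summed to 79.2 FPKM in WT and 93.3 in KO, and the 6 posterior mesoderm markers to 3.53 and 5.79, with Msgn1 at 0 in both. In bulk tissue, more cells that express a gene and more RNA per cell cannot be told apart. The part of tissue composition in the Hox differences was not tested.

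In the single E9.5 KO library, Hox genes reached 1 FPKM up to paralog 6, and in no other column beyond paralog 2. All 38 genes summed to 28.7 FPKM in WT and 57.0 in KO. Paralogs 1 and 2 summed to 27.7 and 40.0 FPKM, paralogs 3 and 4 to 0.790 and 7.91, paralogs 5 to 7 to 0.0551 and 8.83, and paralogs 8 to 13 to 0.178 and 0.254. The KO library was thus higher from paralog 3 to paralog 7, and near 0 beyond.

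Hoxb2 was at 7.17 FPKM in the WT column and 18.7 in the KO library, a log2 difference of 1.27. Hoxb1 was 8.24 and 11.4 FPKM (0.42), and Hoxa2 12.3 and 9.42 (-0.35). Of these 3 members, which passed the filter, 1 was at least 2-fold higher, against 4.7% of all genes. Paralog 3, which patterns rhombomeres 5 and 6 and the neck, had 3 genes at 1 FPKM or more. Hoxa3 had 0.464 FPKM in WT and 1.84 in KO, Hoxb3 0.286 and 2.13, and Hoxd3 0.0183 and 1.39. In paralog 4, Hoxa4 had 1.19 FPKM in KO and was listed at 0 in WT. Hoxc4 had 0 and 0.808 FPKM, Hoxd4 0.0210 and 0.366, and Hoxb4 0 and 0.183. In paralog 5, whose genes act in the cervical trunk, Hoxa5 had 0 and 2.92 FPKM, Hoxb5 0 and 1.53 and Hoxc5 0.0195 and 1.54. Hoxb6 had 0 and 1.80 FPKM, and Hoxb7 0 and 0.944, while Hoxa6 and Hoxa7 were listed at 0 in both. With no filter on low values, 8 of 31 members were at least 2-fold higher (Hoxa4, Hoxa5, Hoxb2, Hoxb3, Hoxb5, Hoxb6, Hoxc5 and Hoxd3), against 3.23% of all genes.

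**Figure D3:**
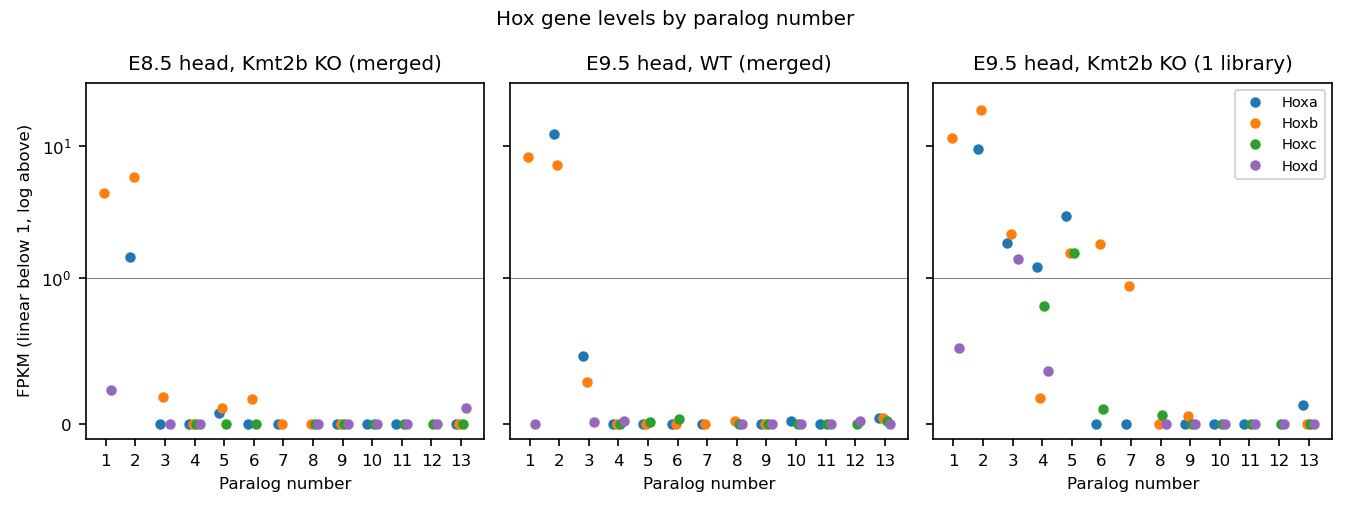
FPKM of each Hox gene against its paralog number in the merged E8.5 KO heads, the merged E9.5 WT heads and the single E9.5 KO library (axis linear below 1, logarithmic above, grey line at 1 FPKM; colours are clusters). In the first and second panels the genes above 1 FPKM are all of paralogs 1 and 2, and in the third they extend to paralog 6.

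The E9.5 KO column is 1 library with no replicate, and its heart marker levels are given above. Single genes of the other lists also differed in it. Aldh1a2, an enzyme that makes retinoic acid, had 0.336 FPKM in WT and 23.8 in KO, and Meox1, a somite gene, 0.468 and 4.09. Aldh1a2 was also present in earlier heads, at 15.0 and 4.14 FPKM in the 2 E8.5 WT heads of the Tet1/2 set. Egr2 had 0.286 and 3.96 FPKM. Of 16 retinoic acid genes tested at E9.5, 11 were higher and 5 lower in KO. Of 6 hindbrain and posterior regulators tested, 3 were higher and 2 lower. The 4 visceral endoderm markers listed summed to 0.397 and 7.45 FPKM. Of the 6 posterior mesoderm markers, which include Meox1, 3 were tested. Of these, 1 was at least 2-fold higher, against 4.7% of all genes, and 2 were lower by less, with a median of -0.10. In that list Foxc2 had 1.06 and 0.628 FPKM, Msgn1 was listed at 0 in both columns, and T had 0.322 and 0.234 FPKM. How much of the Hox difference comes from the tissue in this library was not tested.

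Between heads lacking Tet1 and Tet2 and WT heads, 0 Hox genes passed the test. Hoxb2 had 0.413 and 2.41 FPKM in WT heads and 0 and 0.0896 in DKO heads. Hoxa2 had 1.22 and 1.39 in WT and 0.543 and 0.860 in DKO. The groups did not overlap in these genes. Hoxb1 had 0 and 0.595 FPKM in WT and 0 in both DKO heads, so its groups overlapped. Hoxd1 went the other way in its mean, with 0 and 0.0488 in WT and 0.195 and 0.0298 in DKO, and overlapped too. Of 17 members above 0 in the columns of the fit, 4 were lower without overlap (also Hoxb5 and Hoxb7, both at 0 in DKO and under 0.1 FPKM in WT) and 0 higher, while 25.4% of all genes were lower and 25% higher without overlap. The share of lower members is thus near that of all genes.

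The test across all genes called 0 Hox genes. Hoxa2, the 1 member that passed the filter, differed by -0.44 ± 0.16 on the log2 scale (SE, limma adjusted p = 0.254). In this fit 0.433% of 10867 genes were called, and 16.8% had an unadjusted p under 0.05. With no filter on low values, 17 members were tested, 0 were called (0.16% of all genes) and 1, Hoxa2, had an unadjusted p under 0.05 (13.4% of all genes). Hoxb2 then differed by -1.07 ± 0.42 (SE, adjusted p = 0.387). The DKO effect on Hoxa2 in the head was not shown to differ from that in the epiblast, with a difference of -0.48 ± 0.23 (SE, limma adjusted p = 0.146, 26.4% of genes called). In its epiblast part the set of samples changes with genotype, since the WT epiblasts are those of the Kmt2b set. In both fits Hoxa2 reached 1 FPKM in the WT heads only, so it passed the filter through the group in which it is high. Hoxb2 reached 1 FPKM in the second WT head only and did not pass.

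The 2 WT heads also differed from each other. The second had 4.74 FPKM summed over the 38 Hox genes and the first 1.71, against 0.753 and 0.980 in the DKO heads. The second WT head also had 2.98 FPKM of Egr2 against 0.173 in the first and 0 and 0.0544 in DKO. Its 6 heart markers summed to 176 FPKM, against 27.2 in the first WT head and 7.98 and 4.89 in the DKO heads. The first DKO head stood apart in the 4 blood markers, at 376 FPKM against 4.48 in the second and 0.330 and 0.0476 in the WT heads. The 5 neural crest markers summed to 25.6 and 22.1 FPKM in the DKO heads and to 14.0 and 12.1 in the WT heads. The 8 neural head markers summed to 216 FPKM in both WT heads, and to 159 and 199 in DKO. The part of these tissue differences in the Hox levels was not tested. Limma called 0 of 9 cofactors, 0 of 4 hindbrain and posterior regulators and 0 of 15 retinoic acid genes tested in the DKO heads. At an unadjusted p under 0.05 these were 0, 2 and 5 genes, and 4 of 4 heart markers tested. Of all genes, 0.433% were called and 16.8% had an unadjusted p under 0.05.

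CpG methylation was low in the heads of both genotypes over the spans measured in Hoxa, Hoxb and Hoxd. The Hoxc cluster, with 1 placed promoter, and Hoxb9 to Hoxb13 were not analysed here as spans. Methylation was counted in reads pooled over 2 WT and 2 KO heads at E8.5 and 3 KO epiblasts at E6.5. The span from the Hoxa2 to the Hoxa13 promoter, 96.3 kb with 2904 CpGs, had 2.80% of 10382 reads methylated in WT heads (Wilson 95% interval 2.50 to 3.14) and 2.86% of 9047 in KO heads (2.54 to 3.23). From Hoxb8 to Hoxb1 the levels were 3.32% and 3.48%, and from Hoxd13 to Hoxd1 3.20% and 3.48%. The differences between KO and WT heads were 0.06, 0.17 and 0.28 percentage points, with 95% intervals of -0.41 to 0.53, -0.45 to 0.79 and -0.23 to 0.79. Over all CpGs the levels were 68.2% and 67.6%. Of 15817 windows of 90 kb with at least 1000 reads in WT heads, 12 were under 10%. Reads carry no molecular identifiers and each group is pooled, so the intervals cover counting error only and give no spread between embryos. A read was counted at each CpG it covers. Such counts are not independent, so all intervals given here for methylation can be too narrow even for counting error.

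In KO epiblasts the same spans had 8.01%, 5.33% and 6.49%, each above the KO head, with Wilson intervals that did not overlap (7.32 to 8.76, 4.68 to 6.07 and 5.83 to 7.23 against 2.54 to 3.23, 3.07 to 3.96 and 3.12 to 3.88). Epiblasts of WT were not analysed here for methylation, so the stage difference is within KO. Along the clusters, 5-kb bins had at most 20.7% in the WT heads, with 1 exception. In KO epiblasts they reached 32.8% in Hoxd (90 to 95 kb) and 22.0% in Hoxa (90 to 95 kb). The bin 75 to 80 kb from the Hoxb8 promoter, towards Hoxb1, had 78.5% in WT heads (51 of 65 reads, Wilson 95% interval 67.0 to 86.7), 63.2% in KO heads (43 of 68, 51.4 to 73.7) and 63.5% in KO epiblasts (33 of 52, 49.9 to 75.2). The intervals of the KO and WT heads overlap. It was also the 1 of 57 bins that differed by 10 points or more between KO and WT heads.

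**Figure D4:**
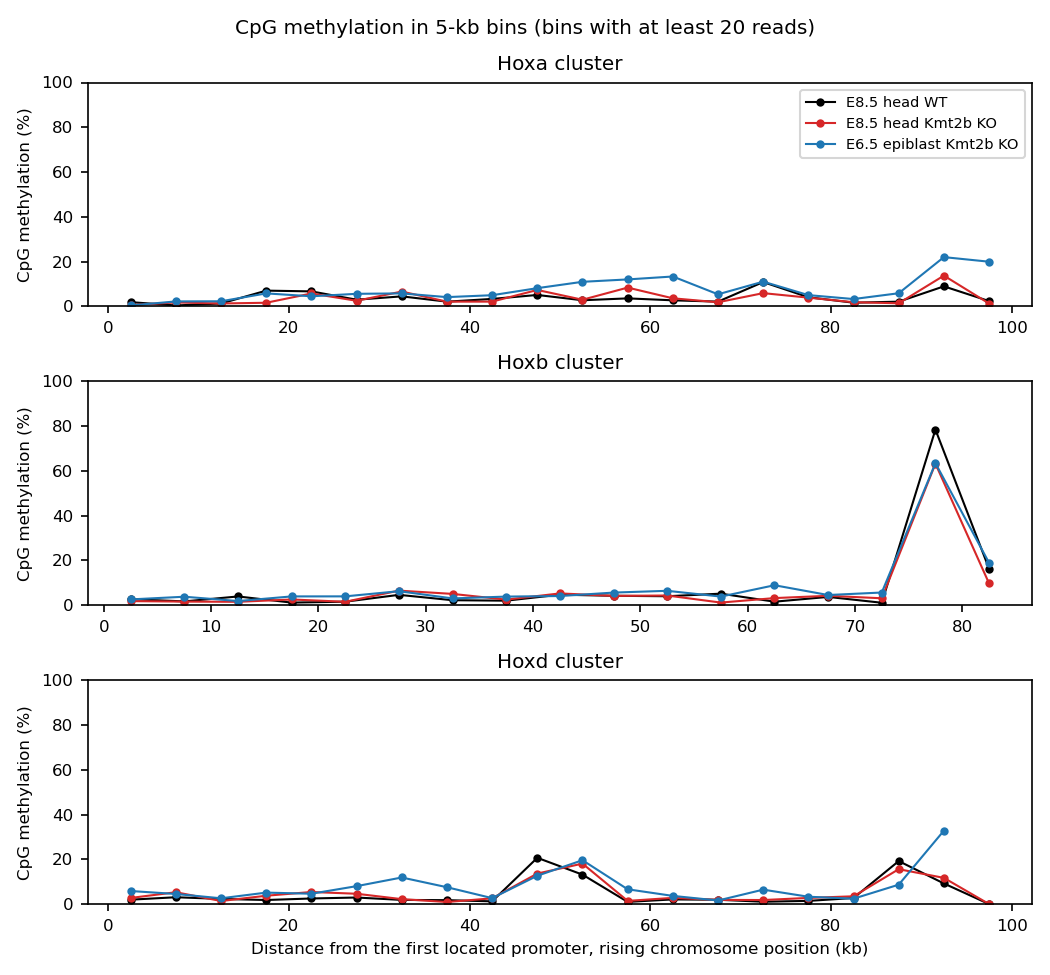
CpG methylation (percent of reads) in 5-kb bins along the spans of the Hoxa, Hoxb and Hoxd clusters, by distance from the first located promoter, for pooled WT heads, KO heads and KO epiblasts. The head lines stay at or under 20.7% apart from the Hoxb bin at 75 to 80 kb, and the KO epiblast line also reaches 32.8% in a Hoxd bin. The Hoxb bin is also where the heads of the genotypes are 10 points or more apart.

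Single promoters gave the same picture at lower depth. Of the 24 Hox windows, 21 could be placed in the methylation files, and 15 had at least 20 reads in both heads. All 15 were under 10% in both, and 0 differed by 10 points or more between KO and WT heads, against 5.6% of 12384 promoters. Low levels were shared by most of these 12384 promoters, of which 89.9% were under 10% in KO heads. Windows with fewer than 6 CpGs, 14310 of 32851, could not be placed and are not among them. The median was 0.608% in WT and 0.885% in KO heads over all 12384, and 1.13% and 1.71% over the 15. The Hoxd1 promoter, printed above, had 3 of 265 reads methylated in WT heads and 0 of 95 in KO heads. The Hoxb1 promoter had 0 of 18 and 0 of 20, and the Hoxa2 promoter 0 of 12 and 0 of 17. Those 2 are under the minimum of 20 reads in WT heads, and the upper Wilson limits for Hoxb1 are 17.6% and 16.1%, so a difference smaller than these was not detectable. Hoxb1, with higher RNA in KO heads, thus had no methylated read at its promoter in either genotype. The Hoxb8 promoter, also under the minimum in WT heads, was above 10% in both. It had 2 of 16 reads methylated in WT heads and 4 of 32 in KO heads, 12.5% in each.

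Between KO heads and KO epiblasts, 2 of 9 promoters with enough reads were lower in the head by at least 10 points, both of paralog 13, against 10.7% of 9241 promoters. The Hoxa13 promoter had 16 of 75 reads methylated in KO epiblasts (21.3%, Wilson 95% interval 13.6 to 31.9) and 2 of 90 in KO heads (2.22%, 0.612 to 7.74). Hoxd13 had 6 of 33 (18.2%, 8.61 to 34.4) and 1 of 164 (0.610%, 0.108 to 3.37). RNA of both genes was at 0.281 FPKM or less in every column. These counts depend on the way reads are weighted: with the mean of single CpG levels 0 of 9 promoters passed. With that mean, Hoxa13 had 14.1% in KO epiblasts and 5.88% in KO heads. Over CpGs with at least 3 reads it had 34.0% and 0%.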

How the data were processed

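RNA values are FPKM deposited by the authors. The submitters' processing notes name TopHat2 (2.0.11), Cufflinks (2.0.2) and mm9. The columns for E6.5 and E8.5 are alike rank by rank, as quantile normalization would leave them, and the E9.5 columns are not. Each group of the Kmt2b set is 1 merged column, and 2 columns of no listed sample were not used. The 27 rows with names turned into dates and small RNA genes were left out.

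Log2(FPKM + 1) was used, which shrinks differences of low genes, and a gene entered a fit if 2 or more of its columns had 1 FPKM or more. Merged columns were compared by 2-fold differences, with no p-value. For the Tet1/2 libraries, limma 3.58.1 (R 4.3.3) was used (mean trend, two-sided, Benjamini-Hochberg adjusted p under 0.05 over all genes tested), and the script was tested on simulated data. The tests of DKO against WT heads and of DKO heads against DKO epiblasts used the DKO epiblasts and both head groups. The other tests used all 9 columns.

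The authors deposited methylation as read counts per CpG (unit other), pooled by group, and the submitters' processing notes name Trim Galore and BS-Seeker2. Promoters of RefSeq (GRCm38.p6) were placed in them by the exact spacing of at least 6 CpGs from 250 bases before to 50 after the start, where it matched 1 place on the same chromosome. This placed 18264 of 32851 windows.

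Members were described by name rule, and 1 Hox gene and 1 gene of another list are not reported here. Members with at least 1 FPKM in any column are named with their values. Of other lists, counts and up to 4 members with the largest differences are given, and Cdx1, Cdx2, Cdx4, Pknox1 and the single marker genes were named after their values were seen. Members and lists were chosen with earlier results of these data known.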

Additional observations from a re-analysis of the deposited data

How the results depend on the processing

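Counts of Hox genes past 2-fold or called were recomputed under 91 combinations of result and setting. Where the reported count was above 0, 29 of 44 stayed within 1.5 times of it, and in 4 of the 44 no Hox gene was left to test. Where it was 0, 46 of 47 were 0 again, which says little, since 6 of them had no Hox gene tested and most others 1 to 3. With a pseudocount of 0.1, the E6.5 epiblast count of Kmt2b KO against WT was 2 in place of 0, and that of WT heads against WT epiblasts was 2 in place of 1. With a pseudocount of 5 the counts were 0 for E8.5 KO heads in place of 2, 0 for E9.5 in place of 1, and 0 for WT heads against WT epiblasts. With no filter on low values the E9.5 count was 8, and the limma counts of heads against epiblasts were 2 in DKO (Hoxd13 added, lower in the head) and 2 in WT (Hoxb2 added), each in place of 1. Leaving out 1 library at a time gave 0 to 1 called in heads against epiblasts, in DKO and in WT. The count was 0 without either WT head, which took Hoxa2 below the filter, and in DKO also without the second DKO head. Promoters lower in KO heads than in KO epiblasts numbered 1 with CpGs of at least 3 reads, 0 with the mean of single CpG levels and 1 with at least 50 reads, in place of 2.

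The same replicate number in different groups was not treated as a pair. Deviations from group means had r = 0.059 between WT and DKO heads, 0.070 between DKO epiblasts and WT heads, and 0.193 between DKO epiblasts and DKO heads. Between WT and DKO epiblasts r was 0.102 for number 1 and 0.034 for number 2. With so few libraries a group, these values cannot exclude a weak effect shared by libraries of the same number. A fit with the replicate number as a block changed no call of a Hox gene. Its adjusted p for Hoxa2 was 0.282 in the heads, 0.0206 from DKO epiblast to DKO head and 0.005 from WT epiblast to WT head.

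FPKM carry no read counts, so values under 1 FPKM have no known precision, and merged columns have no error.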

Other observations

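Genes of retinoic acid signalling, the pathway that turns on anterior Hox genes, differed in both directions in Kmt2b KO heads at E8.5. Of 16 tested, 8 were higher and 8 lower, with a median of 0.02 against -0.01 over all genes. At least 2-fold differences were 2 up and 1 down, against 2.22% and 2.51% of all genes. Aldh1a2, which makes retinoic acid, was at 11.4 FPKM in WT heads and 0.823 in KO heads, a log2 difference of -2.76. Cyp26a1, which degrades it, had 7.58 and 36.0 FPKM (2.11), and the receptor gene Rxrg 3.10 and 10.8 (1.52). Dhrs3, which lowers retinal levels, had 0.960 and 2.86 FPKM (0.98). In the E9.5 KO library Aldh1a2 was instead higher, and Aldh1a3, another synthesizing enzyme, had 53.9 FPKM in WT and 2.83 in KO.

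Of 24 genes that border the Hox clusters, 13 were tested in KO heads at E8.5 and 0 differed by 2-fold, against 4.73% of all genes, with a median of -0.08. The largest differences were 0.79 for Skap2, beside Hoxa (8.07 FPKM in WT and 14.7 in KO), -0.60 for Snx10, -0.54 for Smug1 and -0.54 for Copz1. In the E9.5 KO library Skap2 was the 1 of 13 past 2-fold, at 7.33 and 20.7 FPKM, against 8.26% of all genes. Hotair, the long noncoding RNA of the Hoxc cluster, was listed at 0 in all columns.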
